A study of Mus musculus with 6 samples.

Results

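Interferon-stimulated genes are the genes that cells switch on when interferons bind their receptors. The 41 genes described here are part of that programme and lie outside the IFIT, OAS, GBP, Schlafen, IRF and STAT families. They were taken by symbol from a list that was chosen with earlier results of these data known and does not hold every such gene. All 41 were found among the 25700 gene identifiers counted in 6 libraries. The libraries were bulk RNA-Seq of bone marrow–derived macrophages (BMDMs) from C57BL/6J mice aged 8 to 10 weeks with no engineered allele named in the labels. Marrow cells of both groups grew with 100 ng/ml of recombinant mouse M-CSF, the growth factor that turns marrow progenitors into macrophages. On day 3 the heme group (n = 3) received 300 μM heme-albumin and the control group (n = 3) received albumin, the carrier protein alone, and both were collected on day 7. Each library held the macrophages of a single mouse, as the legend of the study's heatmap describes its columns. In bulk libraries, fewer cells of a type and less RNA per cell cannot be told apart.

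Type I interferons signal through the receptor chains IFNAR1 and IFNAR2 and the kinases JAK1 and TYK2 to a complex that includes STAT2 and IRF9. That complex binds the interferon-stimulated response element, a DNA motif built on repeated GAAA blocks, in the promoters of many of these genes. Macrophages are known to run this circuit at a low level without infection, through small amounts of interferon that they make themselves. The products act directly on viruses, sense foreign or displaced nucleic acid, attach the ubiquitin-like protein ISG15 to other proteins, and feed back on the pathway.

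All 41 genes were lower in heme-treated than in control BMDMs (edgeR quasi-likelihood test, Benjamini-Hochberg adjusted p under 0.05 over 12433 tested genes), and none was higher. Among all tested genes 30.8% were called lower and 31.7% were called higher. The median log2 fold change of the 41 was -1.86, against 0.00 for all tested genes, and the values ran from -7.72 for Rtp4 to -0.17 for Trim25. Changes below -1 were found for 34 of the 41 and changes below -2 for 20, against 8.49% and 2.39% of all tested genes. In each of the 41 every heme library lay below every control library, an arrangement found in 34.0% of tested genes. When the change was tested against a log2 fold change of 0.5 in place of 0, 35 of the 41 were called lower, against 12.2% of tested genes. The 6 that did not were Isg20, Trim25, Ifitm2, Ifitm3, Samhd1 and Ifi207. Levels below are TMM-scaled counts relative to the library total (CPM), and errors of mean levels are SDs over 3 libraries. For a single gene, an exact two-sided permutation test of 3 libraries against 3 cannot give a p below 0.1.

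Together the 41 genes took 3727, 3494 and 4746 CPM in control 1, 2 and 3, and 1803, 1735 and 1759 CPM in heme 1, 2 and 3. The controls were far apart and the heme libraries nearly level. Library depth ran from 27201038 to 32994595 counts. Of the 41 genes, 3 (Rtp4, Mx2 and Ifi44) were under the abundance filter of 0.324 CPM in every heme library, and so entered the test through the controls alone.

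**Figure D1:**
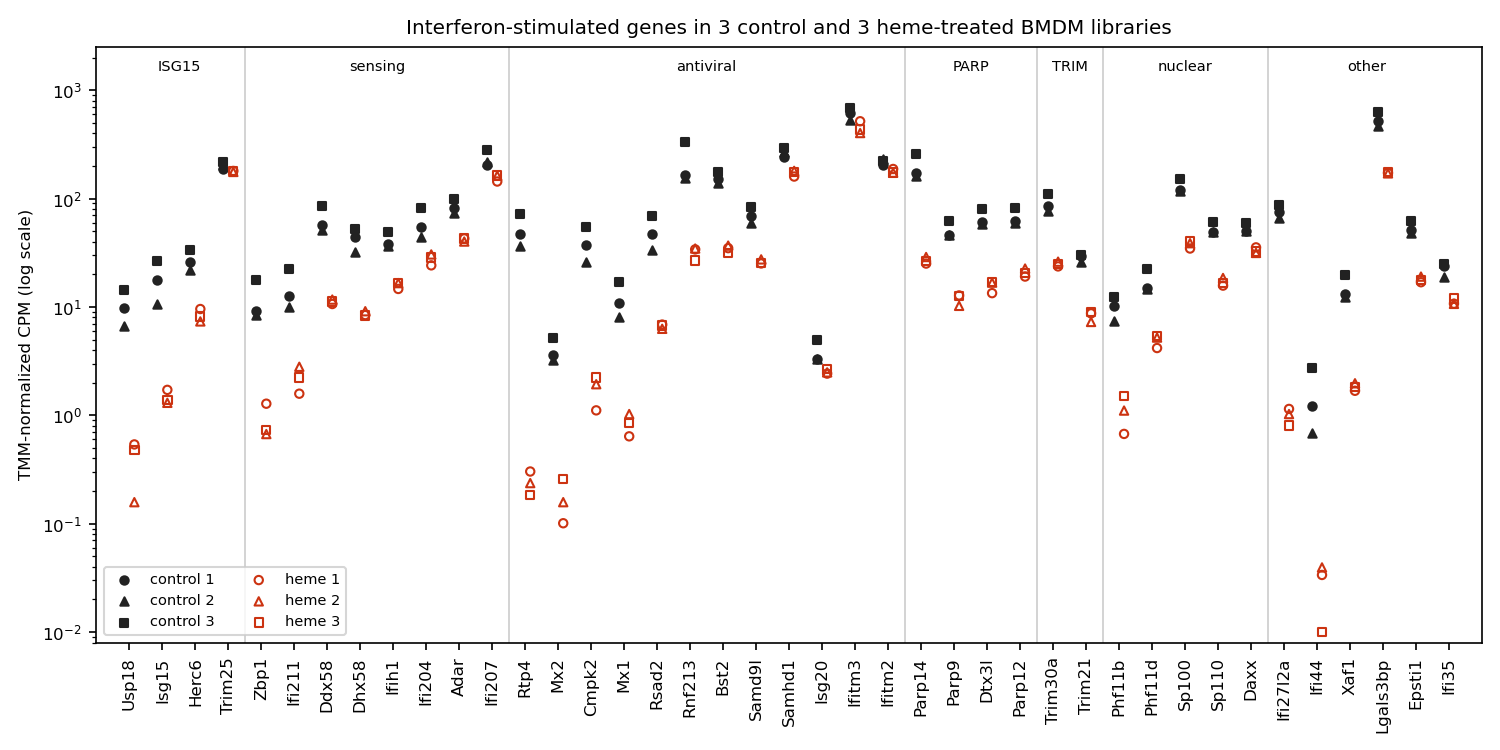
TMM-normalized CPM of each gene (log scale, y axis) in the 3 control libraries (filled black) and the 3 heme libraries (open red), grouped by role on the x axis. Heme 3 had no count of Ifi44 and is drawn at 0.01 CPM. Every heme point lies below the 3 control points of the same gene, and control 3 (filled square) is the top point for 40 of the 41 genes.

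Response element letters were looked up because the STAT2 and IRF9 complex is known to bind that element in promoters of many interferon-stimulated genes. The search used the 300-base promoter windows of the RefSeq table on GRCm38.p6, which span 250 bases before and 50 after each start. The table held 31 of the 41 genes. Those it did not hold were Rtp4, Usp18, Mx1, Mx2, Dhx58, Zbp1, Parp9, Parp14, Ifi27l2a and Ifi204. The motif searched was GAAA, then 2 bases of any kind, then GAAA again, on both strands. It was present for 12 of the 31 genes (38.7%), against 3.99% of all 27025 genes in the table. Counting only the bases before the start gave 8 of 31 (25.8%), against 3.46%. A gamma-activated site, the motif of the interferon-γ response (TTC, 3 bases of any kind, GAA), was present for 6 of 31 (19.4%), against 9.55% of all genes. The following 60-base stretches show the GAAA pair in the 8 genes that hold it before the start, ordered by size of fall among them. Isg15, the first, ranked 9 of the 41 by fall. They read 5′ to 3′ on the strand of the gene, with the GAAA pairs and the bases between them in capitals (on the opposite strand in Rsad2 and Trim30a, where they read TTTC).
Isg15: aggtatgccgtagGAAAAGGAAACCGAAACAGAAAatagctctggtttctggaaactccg
Phf11b: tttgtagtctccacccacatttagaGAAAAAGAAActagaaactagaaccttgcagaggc
Rsad2: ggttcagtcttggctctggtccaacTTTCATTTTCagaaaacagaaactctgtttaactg
Ifi211: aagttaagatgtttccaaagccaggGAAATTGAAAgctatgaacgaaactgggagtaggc
Bst2: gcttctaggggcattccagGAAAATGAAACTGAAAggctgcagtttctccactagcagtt
Trim30a: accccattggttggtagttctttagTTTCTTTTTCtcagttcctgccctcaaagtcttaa
Ifi207: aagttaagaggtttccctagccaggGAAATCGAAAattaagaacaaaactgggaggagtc
Ifitm2: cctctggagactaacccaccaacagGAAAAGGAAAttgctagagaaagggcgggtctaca

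The stretch of Isg15 lies at chr4:156200850-156200909 and holds 3 overlapping pairs. That of Phf11b is chr14:59341346-59341405, of Rsad2 chr12:26456538-26456597, and of Ifi211 chr1:173913049-173913108. Bst2 carries 2 overlapping pairs within chr8:71537562-71537621. The stretch of Trim30a is chr7:104465195-104465254, of Ifi207 chr1:173741816-173741875, and of Ifitm2 chr7:140955973-140956032. All 8 genes lie on the minus strand. Ifi211 and Ifi207, of the same gene cluster on chromosome 1, each hold 1 pair in the stretch shown, and their log2 fold changes were -2.77 and -0.58. The 12 genes with the pair had a median log2 fold change of -2.02 and the 19 without it had -1.65, and the ranges overlapped (-3.63 to -0.29 and -5.76 to -0.17, where the lowest is a fitted value of Ifi44 that rests on 2 heme counts). These are descriptions of letters. No measurement of factor binding was made in these libraries.

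**Figure D2:**
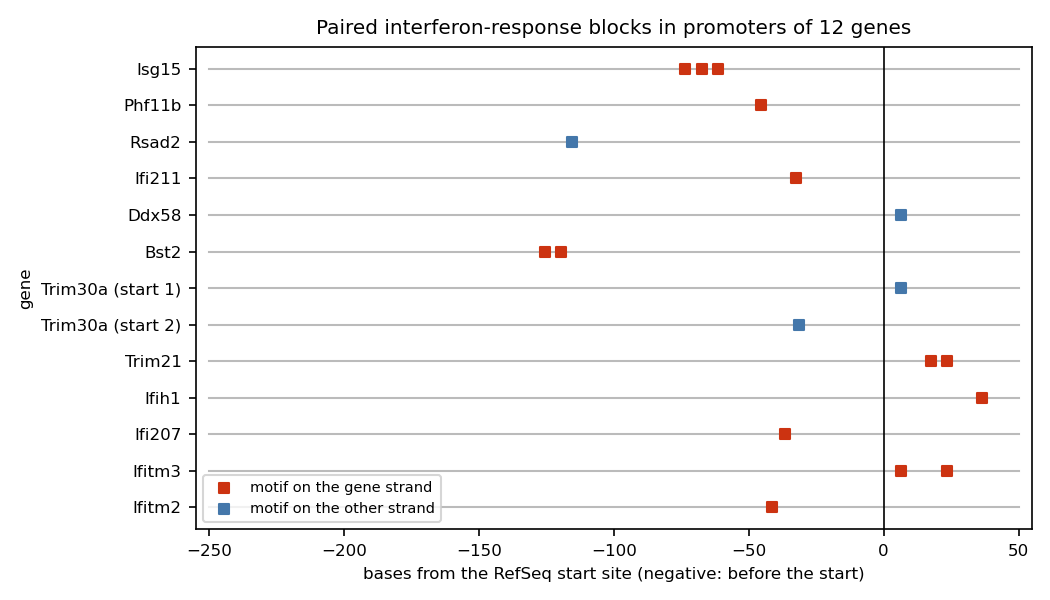
Position of each GAAA pair (squares; red on the strand of the gene, blue on the opposite strand) in the 300-base promoter windows of the 12 genes that hold one, ordered from the largest fall at the top, with bases from the RefSeq start on the x axis. Trim30a has 2 starts in the table and takes a line for each. The pairs of Isg15, Phf11b, Rsad2, Ifi211, Bst2, Ifi207 and Ifitm2 lie before the start, and those of Ddx58, Trim21, Ifih1 and Ifitm3 lie after it.

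The direct antiviral effectors formed the largest role group, with all 12 lower and a median log2 fold change of -2.48. Rtp4, a chaperone of membrane receptors that also restricts flaviviruses, is at chr16:23520291-23614222 on the plus strand. It measured 46.9, 36.7 and 72.4 CPM in the controls and 0.303, 0.237 and 0.183 CPM in the heme libraries, which is a fall from 52.0 ± 18.4 to 0.241 ± 0.0599 CPM. Its log2 fold change of -7.72 (SE 0.38, edgeR adjusted p = 1.82e-07) was the largest of the 41, and 13.6% of the 50-base stretches of Rtp4 also occur in another gene. Mx1 and Mx2, genes of the dynamin-like GTPase family, lie 72400 bases apart on chromosome 16. Whether either makes a working protein in these mice was not measured. Mx1 measured 10.9, 8.09 and 17.0 CPM in controls and 0.640, 1.03 and 0.844 CPM with heme (log2 fold change -3.85, SE 0.32). Mx2, annotated as a polymorphic pseudogene, measured 3.56, 3.25 and 5.14 CPM in controls and 0.101, 0.158 and 0.257 CPM with heme (log2 fold change -4.51, SE 0.34). The lowest control was 7.87-fold above the highest heme library for Mx1 and 12.7-fold for Mx2.

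Cmpk2, a mitochondrial nucleotide kinase, and Rsad2 (viperin), an enzyme that makes a chain-terminating nucleotide, are divergent neighbours 12751 bases apart on chromosome 12. Cmpk2 measured 37.1, 26.2 and 54.8 CPM in controls and 1.11, 1.94 and 2.24 CPM with heme (log2 fold change -4.49, SE 0.32, adjusted p = 2.20e-06). Rsad2 measured 46.7, 33.5 and 68.7 CPM in controls and 6.87, 6.28 and 6.75 CPM with heme (log2 fold change -2.90, SE 0.24). The 2 genes ranked the controls alike, with control 3 on top and control 2 at the bottom, while Cmpk2 kept a smaller share of its control level.

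Rnf213, a giant ubiquitin ligase active against bacteria and viruses, measured 166, 153 and 329 CPM in controls and 33.9, 34.6 and 26.7 CPM with heme (log2 fold change -2.77). Control 3 held more of it than the other two controls added together. Bst2 (tetherin), which holds budding virus at the cell surface, fell from 156 ± 19.3 to 34.4 ± 2.62 CPM (log2 fold change -2.18), and Samd9l, a restriction factor of poxviruses, fell by 1.44 on the log2 scale. Smaller changes were found for Samhd1, which depletes deoxynucleotides (-0.64), for the exonuclease gene Isg20 (-0.61), and for Ifitm3 (-0.45) and Ifitm2 (-0.29), which block virus fusion at membranes. Over the transcript of Ifitm2, 48.5% of the 50-base stretches also occur in other genes, and 40.9% of its exon bases overlap Gm45717, a counted gene on the same strand. Ifitm3 had the highest level of the 41 per length in both groups, 904 CPM per kilobase of exon in controls and 664 with heme. Its lowest control, 534 CPM, stood only just above its highest heme library, 516 CPM. Isg20 measured 3.32, 3.34 and 4.92 CPM in controls and 2.42, 2.49 and 2.68 CPM with heme (edgeR adjusted p = 0.0194). The call of Isg20 was lost without control 3 (log2 fold change -0.40, adjusted p = 0.0698), without heme 1 (adjusted p = 0.0660) and without heme 2 (adjusted p = 0.0544).

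The ISG15 system ran from a near loss to almost no change. ISG15 is attached to proteins by a cascade that ends in a ligase (HERC6 in mice) and is removed by USP18, which also blocks the interferon receptor. Isg15 measured 17.6, 10.7 and 26.7 CPM in controls and 1.72, 1.30 and 1.39 CPM with heme, a log2 fold change of -3.63 (SE 0.34, edgeR adjusted p = 1.36e-05). Usp18 measured 9.78, 6.71 and 14.5 CPM in controls and 0.539, 0.158 and 0.477 CPM with heme (log2 fold change -4.67, SE 0.40). Herc6 measured 26.1, 21.8 and 33.2 CPM in controls and 9.56, 7.35 and 8.18 CPM with heme (log2 fold change -1.69, SE 0.16). For these 3 genes the controls kept one order, with control 3 highest and control 2 lowest, and the heme libraries kept another, with heme 1 highest and heme 2 lowest. Of the 50-base stretches of Herc6, 23.8% also occur in other genes. Trim25, a ubiquitin and ISG15 ligase that also activates the RNA sensor RIG-I, measured 186, 203 and 215 CPM in controls and 180, 176 and 180 CPM with heme. Its log2 fold change was -0.17 (SE 0.07, edgeR adjusted p = 0.0450), and the call was lost when any library but control 1 was left out, with adjusted p from 0.0633 to 0.166. The activating enzyme gene Uba7 and the conjugating enzyme gene Ube2l6 of the same cascade, which are not among the 41, fell by 1.72 and 1.48 on the log2 scale.

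Of the 8 genes that sense or edit nucleic acid, all were lower, with a median log2 fold change of -1.84. Zbp1, a sensor of left-handed nucleic acid that can start necroptosis, measured 9.12, 8.41 and 17.6 CPM in controls and 1.28, 0.671 and 0.734 CPM with heme (log2 fold change -3.68, SE 0.36). The 3 RIG-I-like receptors detect viral RNA in the cytosol. Ddx58 (RIG-I) measured 57.6, 51.1 and 86.0 CPM in controls and 10.6, 11.7 and 11.2 CPM with heme (log2 fold change -2.54, SE 0.18). Dhx58 (LGP2), which tunes the other two, measured 43.7, 32.4 and 52.8 CPM in controls and 8.42, 9.12 and 8.36 CPM with heme (log2 fold change -2.31, SE 0.16). Ifih1 (MDA5) fell from 41.2 ± 6.75 to 15.9 ± 1.12 CPM (log2 fold change -1.37). Their adaptor Mavs was at -0.32.

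The PYHIN genes of chromosome 1 encode DNA-binding proteins, and 3 are among the 41. Ifi211 measured 12.6, 10.1 and 22.2 CPM in controls and 1.58, 2.81 and 2.24 CPM with heme (log2 fold change -2.77, SE 0.32). Ifi204 was at -1.13 and Ifi207 at -0.58, although Ifi204 and Ifi207 lie 5545 bases apart on the same strand. Over the transcripts, 72.9% of the 50-base stretches of Ifi211 and 30.2% of those of Ifi204 also occur in other genes, and how reads with several matches were counted is not given. Adar, which edits adenosine in double-stranded RNA and so hides the cell's own RNA from MDA5, fell by 1.02 on the log2 scale, and 16.8% of its exon bases overlap Chrnb2 on the opposite strand.

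Other PYHIN genes outside the 41 gave 6 of 7 tested lower and 1 higher, against 30.8% and 31.7% of all tested genes. Ifi203 measured 45, 49 and 78.5 CPM in controls and 4.45, 5.77 and 4.92 CPM with heme (log2 fold change -3.51, SE 0.22). Ifi208 had 55, 35 and 80 counts in controls and 1, 1 and 0 with heme, and Ifi213 had 59, 32 and 95 counts in controls and 0, 1 and 0 with heme. Ifi206 fell from 2.47 to 0.303 CPM on average. Before TMM scaling, Ifi206, Ifi208 and Ifi213 were under the abundance filter in every heme library. They so entered the test through the controls alone. The gene that rose was Aim2, the DNA sensor of an inflammasome, with 26.6, 32.6 and 27.9 CPM in controls and 46.2, 40.6 and 46.3 CPM with heme (log2 fold change 0.61, SE 0.09, edgeR adjusted p = 0.000315).

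The log2 fold changes of the ADP-ribosyltransferase group ran from -2.88 to -1.71, with a median of -2.09. Parp14, which modifies proteins with single ADP-ribose units, measured 170, 163 and 259 CPM in controls and 25.1, 28.9 and 26.5 CPM with heme (log2 fold change -2.88, SE 0.17). Parp9 and its partner Dtx3l, a ubiquitin ligase, are divergent genes on chromosome 16 whose exons share 458 bases on opposite strands. Parp9 measured 46.5, 45.7 and 61.9 CPM in controls and 12.8, 10.2 and 12.7 CPM with heme. Dtx3l measured 60.4, 58.2 and 80.8 CPM in controls and 13.4, 16.8 and 17.1 CPM with heme. The log2 fold changes of the pair, -2.11 (SE 0.14) and -2.08 (SE 0.14), differed by less than either error. Parp12 measured 62.4, 59.2 and 81.3 CPM in controls and 19.1, 22.6 and 20.5 CPM with heme (log2 fold change -1.71, SE 0.12).

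Both genes listed as TRIM ligases were lower. Trim21, a cytosolic antibody receptor, measured 29.4, 25.8 and 29.9 CPM in controls and 8.72, 7.27 and 8.99 CPM with heme (log2 fold change -1.77, SE 0.11). Trim30a, a negative regulator of Toll-like receptor signalling, measured 85.3, 76.3 and 110 CPM in controls and 23.6, 26.1 and 24.9 CPM with heme (log2 fold change -1.86, SE 0.13). Trim21 was among the members on which the 3 controls were closest together.

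Nuclear body and PHF11 genes were lower for 5 of 5, with a median log2 fold change of -1.78. Phf11b and Phf11d, PHD finger genes 6055 bases apart on chromosome 14, differed in size of change. Phf11b measured 10.2, 7.46 and 12.3 CPM in controls and 0.673, 1.11 and 1.5 CPM with heme (log2 fold change -3.20, SE 0.27). Phf11d measured 15.0, 14.6 and 22.4 CPM in controls and 4.18, 5.21 and 5.36 CPM with heme (log2 fold change -1.82, SE 0.19). Their transcripts share 47.0% and 12.2% of 50-base stretches with other genes. Sp100, a nuclear body protein that silences incoming viral DNA, measured 119, 118 and 153 CPM in controls and 34.6, 38.7 and 40.2 CPM with heme (log2 fold change -1.78, SE 0.11). Sp110, a relative tied to resistance against intracellular bacteria, measured 49.4, 49.4 and 60.6 CPM in controls and 15.7, 18.5 and 16.6 CPM with heme (log2 fold change -1.65, SE 0.10), with 53.8% of its stretches shared with other genes. Daxx, a histone chaperone, was at -0.68.

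The remaining 6 genes, whose products have mixed or poorly known roles, were all lower, with a median log2 fold change of -2.34. Ifi27l2a, which encodes a small membrane protein and lies at chr12:103442167-103443680 on the minus strand, measured 75.5, 65.7 and 86.9 CPM in controls and 1.15, 1.03 and 0.807 CPM with heme. Its log2 fold change was -6.25 (SE 0.16, edgeR adjusted p = 3.96e-09). Per kilobase of exon it fell from 164 to 2.15 CPM. Ifi44 was the least abundant, with 156 counts over the 3 controls and 2 over the 3 heme libraries, a control to heme ratio of 62.7 (95% exact interval for counting error alone, 17.1 to 522). Xaf1, a proapoptotic factor, measured 13.3, 12.2 and 19.8 CPM in controls and 1.68, 1.98 and 1.83 CPM with heme (log2 fold change -3.04, SE 0.21). Lgals3bp, a secreted glycoprotein that binds galectin, measured 519, 470 and 629 CPM in controls and 173, 171 and 176 CPM with heme (log2 fold change -1.64, SE 0.10). Epsti1 was at -1.58 and Ifi35 at -1.02.

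**Figure D3:**
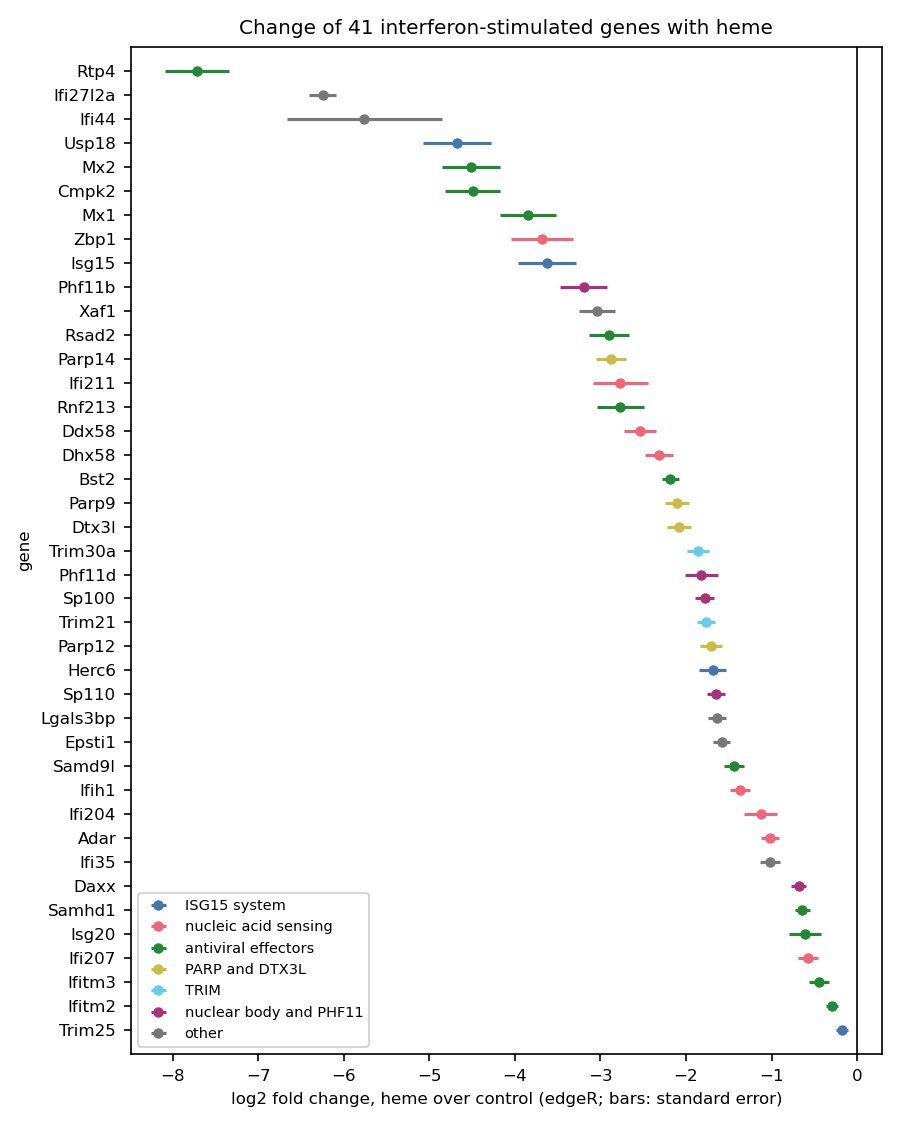
Log2 fold change, heme over control, of the 41 genes (x axis) with standard errors as bars, one gene a line from the largest fall at the top, coloured by role. All points lie left of 0, from -7.72 for Rtp4 to -0.17 for Trim25, and the ADP-ribosyltransferase points lie between -2.88 and -1.71.

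The spread among the controls had a shape that these genes shared. Control 3 was the highest control for 40 of the 41, against 25.2% of all tested genes, and the full order control 3, control 1, control 2 was found for 36, against 12%. The exceptions to the full order were Samhd1, Isg20, Ifi207 and Trim25, where control 1 was lowest, and Ifitm2, where control 2 was highest. With library sizes alone control 3 was highest for 39, and with upper quartile scaling or DESeq2 size factors for 40. The median SD of log2 CPM over the 3 controls was 0.27 for the 41 genes and 0.13 for all tested genes. For 12 of the 41 it was above the 90th percentile of all tested genes, 0.38. These were Ifi44, Isg15, Rnf213, Ifi211, Zbp1, Usp18, Mx1, Cmpk2, Rsad2, Rtp4, Ifi204 and Ddx58.

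The excess spread rested on control 3. Without control 3 the median SD of the 41 over the other two controls was 0.11, against 0.13 for all tested genes. Without control 1 it was 0.37 against 0.09, and without control 2 it was 0.27 against 0.10. The median ratio of control 3 to control 2 was 1.44 for the 41 and 0.999 for all tested genes, and it reached 2.15 for Rnf213, 2.49 for Isg15 and 3.96 for Ifi44. Control 1 exceeded control 2 by a median ratio of 1.10. Among genes with a control mean of at least 10 CPM, the highest control was at least 1.5-fold above the lowest for 16 of 37 members and for 5.61% of 8323 tested genes.

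Heme libraries showed no such order. Their median SD was 0.12, against 0.09 for all tested genes, and the 6 possible orders of the 3 heme libraries were each taken by 2 to 13 members. The control SD was above the heme SD for 34 of the 40 genes with a count in every library, against 64.1% of tested genes. The change with heme was larger than the spread between controls for most of the 41. For 35 of 41, the ratio of the lowest control to the highest heme library exceeded the ratio of the highest to the lowest control, and in 31 it was at least 2. The 6 for which it did not were Isg20, Trim25, Ifitm2, Ifitm3, Ifi204 and Ifi207. These ratios were not counted over all tested genes, so both counts describe the 41 alone. Plain separation, with every heme library below every control library, was found in 34.0% of tested genes.

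**Figure D4:**
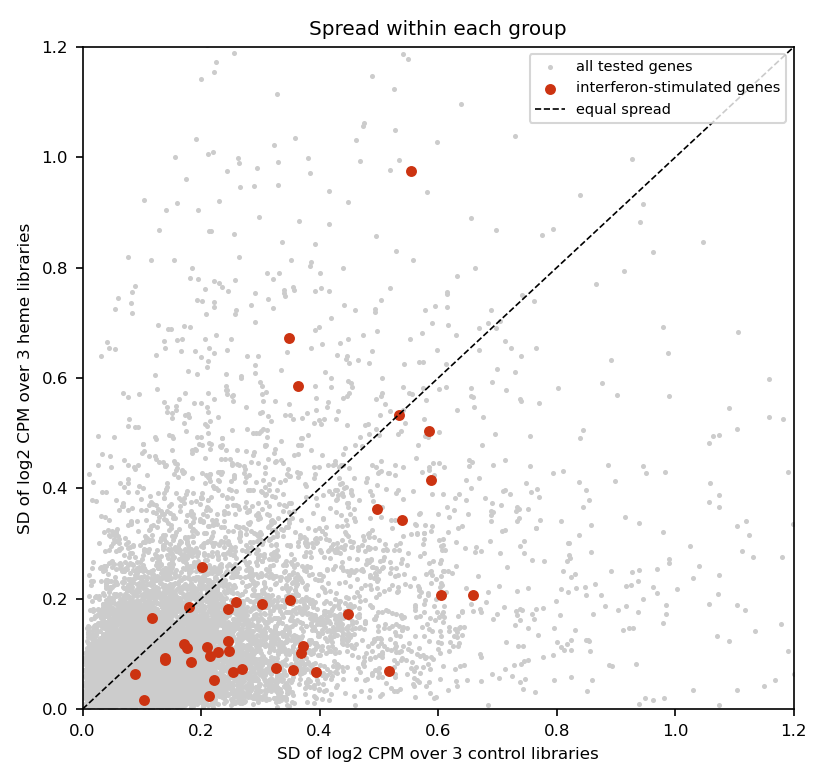
SD of log2 CPM over the 3 controls (x axis) and over the 3 heme libraries (y axis) for all tested genes (grey) and for the 40 interferon-stimulated genes with a count in every library (red), with a dashed line of equal spread. The axes end at 1.2, which leaves out 67 tested genes. Of the red points, 34 lie on the side of larger control spread.

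Genes that differed more between controls also differed more with heme. The log2 ratio of control 3 to control 2 and the log2 ratio of the heme mean to control 1, which use separate libraries, had r = -0.656 and rho = -0.722 over the 41 genes, and r = -0.621 and rho = -0.731 over the 37 with at least 10 CPM. Over 12333 tested genes r was 0.0127. These correlations run across genes, which are not independent replicates, and the points share the same 6 libraries and scaling, so they are given as a description. Isg15, Usp18 and Ifi44 were far out on both axes, Rnf213 on the first alone, Trim25 was near 0 on both, and Ifi27l2a combined a log2 fold change of -6.25 with controls that differed by at most 1.32-fold.

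**Figure D5:**
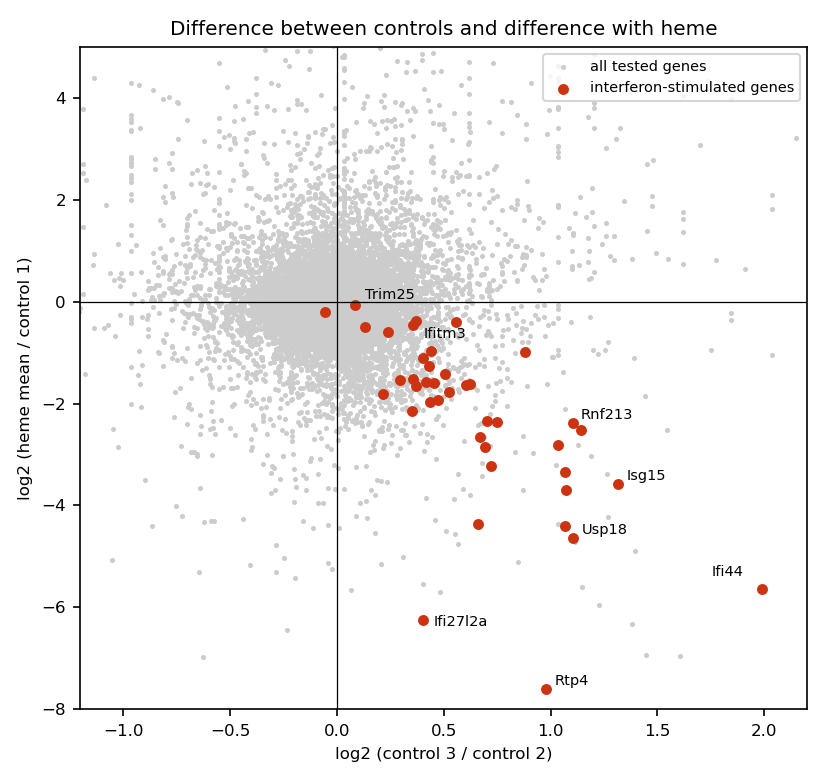
Log2 ratio of control 3 to control 2 (x axis) and of the heme mean to control 1 (y axis) for all tested genes (grey) and the 41 interferon-stimulated genes (red). The axis ranges leave out 130 tested genes. Of the red points, 40 lie right of 0 on the x axis, and those furthest right lie low on the y axis.

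Control 3 also had the lowest depth of the controls, 30509099 counts, and the highest mitochondrial share, 0.840%, against 0.609% and 0.769% in control 1 and control 2 and 0.443% to 0.531% with heme. Plasmacytoid dendritic cells, the specialised interferon producers, were looked for with 10 markers, which summed to 255, 311 and 288 CPM in control 1, 2 and 3 and to 151 to 155 CPM with heme. Nearly all of the control sums came from Irf8 and Tcf4, which macrophages also express. With heme, Irf8 averaged 97.6 CPM, Tcf4 31.0 CPM and Runx2 17.7 CPM. Klk1 had no count. The untested markers Siglech and Spib were low, at means of 0.253 and 0.315 CPM in controls and 0.0478 and 0.0122 CPM with heme. Of the 6 markers tested, 2 were lower (Irf8 and Tcf4), Ccr9 was not called, and 3 were higher. Those were Runx2, with mean levels of 3.06 CPM in controls and 17.7 CPM with heme, Cox6a2 (0.723 and 5.21 CPM) and Pacsin1 (0.0577 and 0.553 CPM). Pacsin1 was under the abundance filter in every control library. Over all tested genes 30.8% were called lower and 31.7% higher. With no filter on low counts, 4 of the 10 markers were called lower and 3 higher. No marker list of another cell type had its highest control sum in control 3. The part of these measures in the control spread was not tested.

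Transcripts of interferons themselves were nearly absent. Ifnb1 had no count in any library. For scale, 3 counts would be 0.0909 to 0.110 CPM of the library totals before TMM scaling. In a search added after the counts were seen, 18 of 21 interferon genes had no count and the others had 5 counts in all. The libraries therefore give no level of interferon mRNA to set beside the 41 genes.

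Of 28 listed genes of the receptor and signalling path, 26 were tested, 17 were lower, 4 were higher and 5 were not called. Shares over all tested genes were 30.8% lower and 31.7% higher. The receptor chains differed in size of change. Ifnar1 measured 145, 143 and 147 CPM in controls and 111, 142 and 119 CPM with heme (log2 fold change -0.23, edgeR adjusted p = 0.0442), a call that was lost without control 3, heme 1 or heme 3 (adjusted p from 0.0992 to 0.174). Ifnar2 was at -0.26. Of the interferon-γ receptor chains, Ifngr1 fell from 193 to 85.2 CPM on average (log2 fold change -1.18, SE 0.09), and Ifngr2 was not called (-0.11, edgeR adjusted p = 0.162) except with library sizes alone, where it was called lower. Genes of the complex that reads the response element were lower by more. Stat2 measured 98.6, 80.3 and 127 CPM in controls and 20.0, 17.1 and 18.1 CPM with heme (log2 fold change -2.47), and Irf9 was at -2.03. Irf7, the factor that amplifies interferon production, measured 45.3, 31.8 and 68.8 CPM in controls and 1.55, 2.05 and 1.54 CPM with heme (log2 fold change -4.83, SE 0.31). Control 3 was the highest control for Stat2, Irf9 and Irf7 too. Over the tested genes of this list control 3 was highest for 11 of 26, against 25.2% of all tested genes. For the PYHIN relatives the count was 6 of 7, and for the other relatives 15 of 25. Among the genes called lower alone, the counts were 10 of 17, 6 of 6 and 14 of 19. The matching share over all genes called lower was not computed.

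Tlr9, the endosomal DNA receptor, was lower (-2.32), and so was the kinase gene Ikbke (-1.63). Those higher were Socs3, a feedback inhibitor of JAK kinases (log2 fold change 2.06), Traf3 (0.69), Tmem173, which encodes STING (0.48), and Jak1 (0.27). The call of Jak1 was lost with library sizes alone (log2 fold change 0.05, adjusted p = 0.555). Socs1 was not called (adjusted p = 0.0789).

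Of 29 other relatives of the 41 genes, 25 were tested, 19 were lower, 1 was higher and 5 were not called. Shares over all tested genes were 30.8% lower and 31.7% higher. Trim30d, next to Trim30a in sequence family, measured 18.9, 16.2 and 22.8 CPM in controls and 3.27, 3.56 and 3.78 CPM with heme (log2 fold change -2.45). Phf11a had 75, 53 and 64 counts in controls and 1, 4 and 0 with heme (log2 fold change -4.85), Trim30c was at -4.54 with 4 counts over the heme libraries, and Ifitm6 was at -1.92. Phf11a and Trim30c were under the abundance filter in every heme library, and so entered the test through the controls alone. The gene that rose was Ifitm1, with 0.304, 1.07 and 0.612 CPM in controls and 4.31, 4.90 and 5.25 CPM with heme (log2 fold change 2.87, SE 0.31, edgeR adjusted p = 3.86e-05). Without control 3, Zc3hav1 was also called higher and Ifi27 lower. The family members Ifitm2 and Ifitm3 were at -0.29 and -0.45.

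Marker lists of the labelled cell type and of other cells moved too, where 30.8% of all tested genes were called lower and 31.7% higher. The 8 macrophage markers summed to 31780 to 37570 CPM in controls and 36240 to 39510 CPM with heme, and 6 were lower, 1 higher and 1 not called. Most of both sums was Lyz2, the marker not called, with means of 28010 CPM in controls and 32550 CPM with heme. Monocyte markers (1 lower, 7 higher of 8) summed to 47.3 to 51.4 CPM in controls and 339 to 374 CPM with heme, where Treml4 alone averaged 2.36 and 214 CPM. Neutrophil markers (1 lower, 8 higher of 9 tested) went from 58.0 to 117 CPM to 126 to 170 CPM, and erythroid and megakaryocyte markers from 25.6 to 42.4 CPM to 178 to 222 CPM. The neutrophil markers Mpo, Elane, Prtn3 and Cxcr2 were under the abundance filter in every control, and entered the test through the heme libraries. Of the megakaryocyte markers, Pf4 alone averaged 32.5 CPM in controls and 202.5 CPM with heme. Conventional dendritic cell markers summed to 27 to 43.2 CPM and 11.8 to 15.4 CPM, with Clec10a the only one of 8 tested. Lymphoid markers summed to at most 2.35 CPM, with Cd3e and Cd3g at 0, and stromal and endothelial markers to at most 2.88 CPM. The part of these shifts in the falls of the 41 genes was not tested.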

How the data were processed

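RNA of 6 BMDM cultures was sequenced from stranded libraries. The authors deposited 1 table of raw read counts a library, with Ensembl gene identifiers. The processing notes name STAR 2.7.0, featureCounts and GRCm38.p5. For the annotation release, the strand option and reads with several matches, the setting is not given in the sources used here. Deposited counts were used as they stand, and 36 of 25700 identifiers had no symbol. Positions and exon lengths were read from the GENCODE M21 annotation (GRCm38.p6), and promoter sequences from RefSeq on the same assembly.

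Genes were kept by the filterByExpr function of edgeR 4.0.16 in R 4.3.3 (minimum count 10, by group), which left 12433. After TMM scaling, the quasi-likelihood test (glmQLFit, glmQLFTest) compared the groups with no other term, and p-values were adjusted over all 12433 by Benjamini-Hochberg. The script was first tested on data with known answers. Alternatives were DESeq2 1.42.0, limma 3.58.1 (voom), other scalings and filters, a replicate block, a threshold of 0.5 on the log2 scale, and leaving out each library. A control and a heme library share each replicate number, but no source says that they share a mouse. Deviations from the group means in same-numbered libraries correlated at -0.0998, -0.142 and -0.0683. With 3 libraries a group these values cannot show whether a mouse was shared, so the pairing is unknown.

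The 41 genes and the pathway and marker lists were chosen with earlier results of these data known. Values in every library are given for up to 4 genes of each role by size of change and for others a statement turns on, and the rest by log2 fold change. Of the other lists, up to 4 called genes by size, up to 2 in the opposite direction, and the main factors of the pathway are named. Some genes of the lists are not reported here.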

Additional observations from a re-analysis of the deposited data

How the results depend on the processing

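All 41 genes kept their direction in every alternative run. Of the 41, 41 were called with DESeq2 size factors, upper quartile scaling, library sizes alone, the DESeq2 Wald test, limma-voom and no filter on low counts. With a minimum of CPM above 1 in 3 libraries 39 of 40 tested were called (Trim25, adjusted p = 0.0513, was lost and Ifi44 was not tested), and against a log2 fold change of 0.5 the count was 35. Leaving out one library gave 39 to 41 called genes, with Trim25 or Isg20 those lost. With the replicate block, which the labels do not establish as a pairing, 40 of the 41 were called (Trim25, adjusted p = 0.0892) and Ifnar1 was lost (adjusted p = 0.0546). Over all tested genes the block gave 3493 lower and 3671 higher, and no other call named in the text changed with it.

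Over all tested genes 7769 were called, 3831 lower and 3938 higher. Library sizes alone moved the median log2 fold change of all tested genes by -0.22 and gave 5814 lower and 2580 higher. Against a log2 fold change of 0.5, 3333 were called, 1517 lower and 1816 higher. Leaving out one library gave 3253 to 3968 lower and 3457 to 4071 higher. The median control SD of the 41 ran from 0.25 to 0.28 over other scalings and from 0.11 to 0.37 without one control. The GAAA pair followed by CT was present for 16.1% of the promoters, against 38.7% for the pair alone, of which it is a stricter form. Calls near an adjusted p of 0.05 rest on 3 libraries a group.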
